A study of Rattus norvegicus with 4 samples.

Results

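Narrow but strong open sites were chromatin regions of rat Schwann cells that were open in every library, short in extent and high in fold enrichment over their surroundings. They were chosen from peak lists of ATAC-seq, an assay that tags accessible DNA with adapters carried by a transposase, after which a peak caller then marks the stretches with more fragments than the local background. Peaks of the 4 libraries that shared at least 1 bp on the rat rn6 build were merged into 57765 regions on chromosomes 1 to 20. Of these, 31191 held a peak in all 4 lists and are called shared regions. Within each list the fold of a shared region was turned into its percentile, and 1106 regions with a merged length under 700 bp and a mean percentile of at least 75 were kept, which was 3.55% of the shared regions.

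Schwann cells are the glia that ensheath and myelinate the axons of peripheral nerves. Egr2 is the transcription factor that drives their myelin programme, and an antisense RNA made from its promoter is known to recruit chromatin-modifying complexes there. An open site is where nucleosomes have been displaced, commonly by bound transcription factors. Short openings are common at distal elements such as enhancers, whereas promoters often give wider ones. No gene and no kind of element was assigned to the sites here, and their sequences are not printed, because no rn6 genome or annotation was used. For the same reason the cell type was not checked against its marker genes.

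All cells were primary cultures from rat sciatic nerve, grown with forskolin and heregulin-β1 and infected for 48 h with a lentivirus. In the Lenti-AS group the virus expressed the Egr2 antisense RNA, and in the Lenti-GFP control group it expressed green fluorescent protein, with 2 libraries of 100000 cells per group. According to the methods, the antisense RNA was carried by a vector of the DsRed-Express2 type and the control by an AcGFP1 vector, so the reporter differed between the groups as well as the antisense RNA. The peak lists do not measure that RNA. The labels call each library a biological replicate and do not tie it to a culture or an animal, so the p-values below measure the spread between these libraries only.

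Depth differed between the libraries. The lists held between 35646 peaks in Lenti-GFP replicate 2 and 54289 in Lenti-GFP replicate 1, and they give no read totals. The lowest background under any peak, which stands for the genome-wide level of a library, was 4.99 and 1.98 fragments in Lenti-GFP replicates 1 and 2, and 2.09 and 2.80 in Lenti-AS replicates 1 and 2. Values of the 4 libraries are given in this order throughout. Lenti-GFP replicate 1 thus stood apart as the deepest library. Without it the same rule gave 2141 sites, of which 993 were among the 1106, and its peak was the widest of the 4 in 784 of the 1106.

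Strength and shortness rarely met in one region. Of the 7225 shared regions at or above the percentile limit, 15.3% were under 700 bp, and of the 11751 shared regions under 700 bp, 9.41% reached the percentile limit. At the very top of the ranking the short sites were common. All of the 10 shared regions with the highest mean percentile were narrow strong sites, as were 39 of the top 100 and 148 of the top 1000. The other shared regions serve below as the comparison and comprised 10645 narrow weaker, 6119 wide strong and 13321 wide weaker regions, divided by the same 2 limits.

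**Figure D1:**
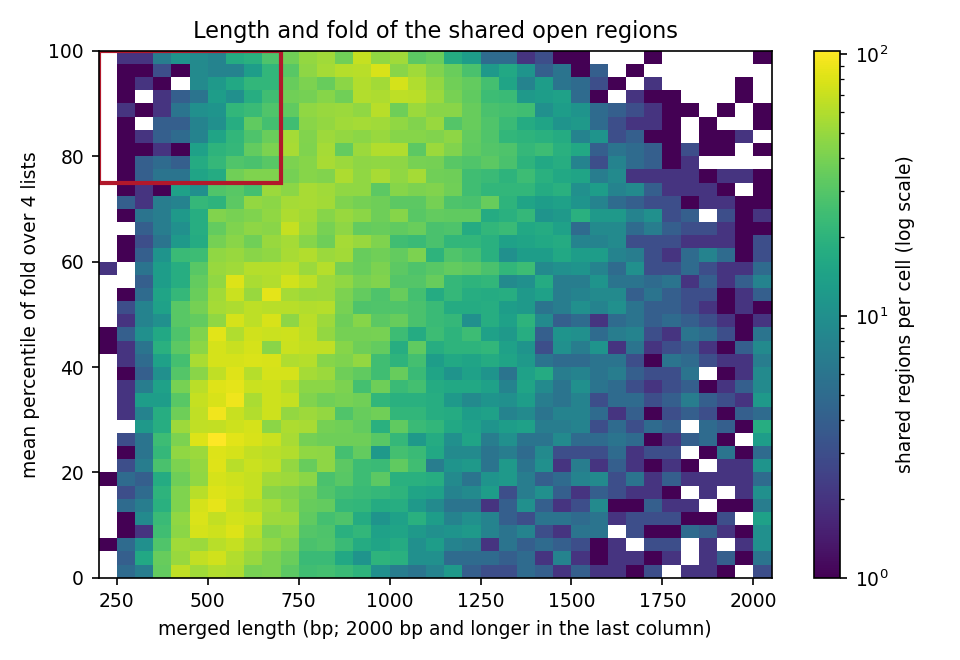
The number of shared regions (colour, log scale) by merged length in bp (horizontal axis, in steps of 50 bp) and mean percentile of fold over the 4 lists (vertical axis). The red frame holds the 1106 narrow strong sites, a thinly filled corner, and the region density continues across both of its limits.

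Length and fold chose these sites and are described without a test. The median length was 601 bp, with quartiles of 523 and 653.75 bp and a range of 262 to 699 bp. Just inside the length limit lay chr1:46329294-46329992 (699 bp, mean percentile 98.0) and chr2:144054454-144055152 (699 bp, 81.4), and just outside it lay chr4:65335091-65335790 (700 bp, 77.2) and chr5:8293728-8294427 (700 bp, 77.2). At the percentile limit, chr15:104954461-104955111 (75.0004) and chr9:50362616-50363280 (75.015) were inside, and chr10:97471375-97472062 (74.985) and chr14:113838098-113838505 (74.972) were outside. Neither limit fell at a gap in the values. With 600 bp as the limit 548 sites remained, and with 800 bp there were 1939.

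Fold at the summit, the ratio of fragment pileup to local background, had a median over the sites of 7.23 and 8.55 in the Lenti-GFP replicates and of 10.5 and 9.43 in the Lenti-AS replicates. Fold is not on 1 scale across libraries of different depth, so percentiles within each list were used to set libraries side by side. These had medians of 89.2, 85.1, 86.3 and 88.2 in the same order. A mean percentile of at least 75 did not require every list to reach it, and 584 sites did so while 522 fell short in at least 1 list. The lowest percentile of any site was 34.5, in Lenti-GFP replicate 2.

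Fold is made of pileup and background, so both belong to what chose the sites and are described only. Compared with wide strong regions of similar fold, the narrow strong sites had fewer fragments over a lower background. The pileup, the number of fragments over the summit, was recovered from the fold and the p-value of each peak. Its median was 73 and 39 fragments in the Lenti-GFP replicates and 48 and 55.5 in the Lenti-AS replicates. Wide strong regions had 127, 78, 104 and 108 fragments at similar median folds of 7.02, 9.07, 10.9 and 9.44. The local background of the narrow strong sites was 1.78, 1.75, 1.59 and 1.65 times the lowest of each list, against 3.33, 3.70, 3.85 and 3.54 times for wide strong regions. Both were lower in all 4 libraries. Narrow weaker regions had 55, 27, 34 and 39 fragments over backgrounds of 2.31, 2.33, 2.39 and 2.37 times the lowest. A higher pileup or a lower background than in these weaker regions of like length follows from choosing by fold.

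The background was at the lowest level of its list, within 1%, in 125 and 112 sites in the Lenti-GFP replicates and in 173 and 150 in the Lenti-AS replicates. That was 11.3%, 10.1%, 15.6% and 13.6% of the sites, compared with 0.768%, 0.703%, 1.27% and 0.948% of wide strong regions. Altogether 71 sites (6.42%) had the lowest background in every list, against 0.376% of wide strong and 0.968% of all shared regions. The lowest background is a floor set by the whole library, so these sites had local levels at or below the genome-wide one. They had a median of 10 other shared regions within 500 kb, against 15 for the 883 sites above the lowest in every list. Because the p-value rewards pileup as well as fold, ranking by −log10 p instead of fold kept only 267 of the 1106 sites at or above the percentile limit, whereas 76.1% of wide strong regions stayed there.

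The strongest site was chr1:11930229-11930651, 423 bp long. Its fold was 25.7 and 33.0 in the Lenti-GFP replicates and 31.7 and 31.6 in the Lenti-AS replicates, and its summits lay within 8 bp of each other. It held the highest fold of all shared regions in every list except that of Lenti-GFP replicate 1. There the highest fold, 26.0, belonged to the second strongest site, chr14:46329423-46329872, which had folds of 27.8, 29.4 and 27.9 in the other libraries. The third, chr3:41584-42096, lies near the start of its chromosome and had folds of 21.9, 23.6, 25.0 and 24.1.

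Among the strongest sites, chr16:74506326-74506729 differed most between libraries. Its fold was 15.3 in Lenti-GFP replicate 1 against 28.2 in the other control library and 30.7 and 24.2 with the antisense RNA. Its pileup was nearly level at 91, 83, 94 and 91 fragments, and its background was at the lowest value of every list. The lower fold in Lenti-GFP replicate 1 went with a higher background there, 4.99 fragments. The same held for chr5:91132107-91132597 (folds 17.3, 23.8, 26.3 and 24.4, pileups 103, 70, 97 and 92) and chr1:2073382-2073922 (folds 17.0, 21.2, 23.0 and 24.0, pileups 101, 67, 88 and 94). Pileups are not scaled for depth, and the cause of the lower folds was not tested.

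The remaining sites of the top 10 were more even. They were chr12:11433839-11434459 (folds 22.4, 21.5, 23.2 and 23.9), chr10:104747771-104748384 (20.1, 22.4, 24.4 and 20.4), chr6:30631232-30631840 (20.7, 20.2, 22.3 and 21.5) and chr1:181286490-181287095 (21.0, 22.0, 21.6 and 20.5). In percentile the ranges of the groups overlapped at the first 3 of these, and at chr1:181286490-181287095 both Lenti-AS libraries ranked below both controls (limma adjusted p of 0.851).

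**Figure D2:**
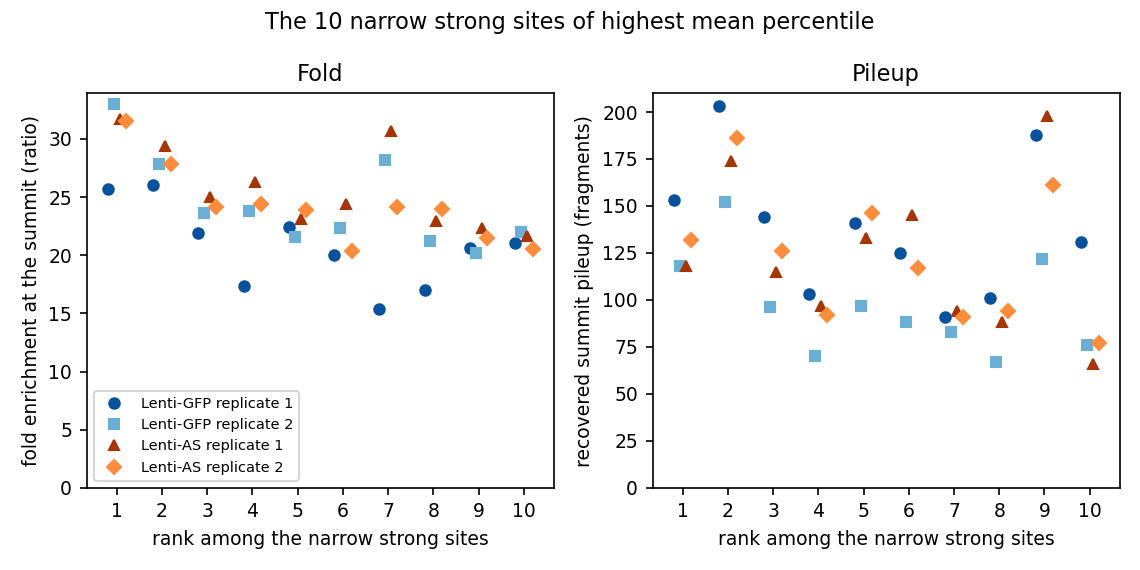
Fold enrichment (left, ratio) and recovered summit pileup (right, fragments) in each of the 4 libraries for the 10 narrow strong sites of highest mean percentile, ordered by rank. Every value is 1 library, and Lenti-GFP replicate 1 is lowest in fold at 7 of the 10 sites and lowest in pileup at 0.

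Between the Lenti-GFP replicates, pileup differed less than the lowest background did. The pileup in Lenti-GFP replicate 1 was 1.46 times that in Lenti-GFP replicate 2 in the median of the 10 strongest sites, with a range of 1.10 to 1.72. The median ratio was 1.66 for the next 90 sites, 1.82 for the 400 after them and 1.92 for the other 606 sites. The lowest backgrounds of the same lists differed by 2.52 times. The ratio was 1.86 over all narrow strong sites, 1.94 in narrow weaker, 1.61 in wide strong and 1.82 in all shared regions, so it was below that of the backgrounds in each of these sets. Strength was ranked by fold, which is made from the same pileups, so the order of these ratios among the sites is a description.

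The summits of the narrow strong sites agreed closely. The spread, the distance between the leftmost and the rightmost of the 4 summits, had a median of 47.5 bp with quartiles of 29 and 74 bp. It was 52 bp for wide strong, 93 bp for narrow weaker and 102 bp for wide weaker regions. All 4 summits lay within 50 bp in 592 sites (53.5%) and within 100 bp in 967 (87.4%). The shares within 100 bp were 76.9% of wide strong and 53.6% of narrow weaker regions. The merged length caps the spread, so fewer far-off summits than in wide regions is in part built into the limit of 700 bp, whereas narrow weaker regions lie under the same limit. Regions are not replicates, and these are descriptions with no p-value.

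The agreement was as close between groups as within them. The median distance between the summits of a pair of libraries was 24 bp for the Lenti-GFP replicates and 18 bp for the Lenti-AS replicates. Between the groups it was 21, 22, 21 and 21 bp for the 4 pairs of libraries. Wide strong regions gave 24 and 17 bp within the groups, and narrow weaker regions gave 42 and 33 bp. Summits over 100 bp apart occurred in 3.25% to 6.42% of the narrow strong sites, depending on the pair, against 7.26% to 11.5% of the wide strong and 18.0% to 23.7% of the narrow weaker regions.

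Per library, the median distance of the summit from the mean of the other 3 was 19 and 19.3 bp in the Lenti-GFP replicates and 17.8 and 18 bp in the Lenti-AS replicates. The Lenti-AS libraries were both below the Lenti-GFP libraries. The group difference was −1.25 bp (exact permutation test, two-sided, p = 0.33, the smallest that 2 libraries against 2 can give). The difference ranged from −3 bp without Lenti-GFP replicate 1 to −0.25 bp without Lenti-GFP replicate 2.

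Summits lay closer together in narrow strong sites than in narrow weaker regions of like length. Among sites of 600 to 699 bp the median spread was 48 bp, and among narrow weaker regions of that length it was 103 bp. Below 400 bp the medians were 33 and 56.5 bp. Pileup was lower in narrow weaker regions, so the classes were also set side by side by the mean percentile of pileup. In the lowest bin, up to percentile 20, the median spread was 56 bp for narrow strong, 119 bp for narrow weaker and 87 bp for wide strong regions. In the highest bin, above percentile 80, they were 30, 45 and 48 bp. Spread was lowest in the narrow strong sites in each of the 5 bins, with 92 sites in the lowest bin and 63 in the highest.

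The tightest summits belonged to chr4:146538751-146539012, the shortest site at 262 bp, where the summits were at 146538890 in 3 lists and at 146538889 in Lenti-AS replicate 2. Its folds were 9.51, 14.4, 15.3 and 14.5, with the background at or close to the lowest of each list. At chr2:198382291-198382790 the 4 summits lay within 2 bp although the background was 4.42 times the lowest, and at chr16:74506326-74506729 they lay within 3 bp. Close summits thus occurred at low and at high background.

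The widest spread, 349 bp, was at chr2:120316237-120316902. There Lenti-GFP replicate 1 and Lenti-AS replicate 2 had summits at 120316761 and 120316742, and Lenti-GFP replicate 2 and Lenti-AS replicate 1 had them at 120316412 and 120316417. The libraries therefore split between a pair of positions, with a member of each group at either. At chr6:8138455-8139106 (287 bp) and chr19:62228544-62229240 (282 bp), Lenti-GFP replicate 2 alone stood away from the other summits. At chr12:23893951-23894644 (297 bp) both Lenti-AS summits were at 23894417 and the Lenti-GFP summits were at 23894279 and 23894120. This was the only one of the widest 5 where the summits of the groups did not overlap, as those of chr3:149084329-149084978 (279 bp) did.

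**Figure D3:**
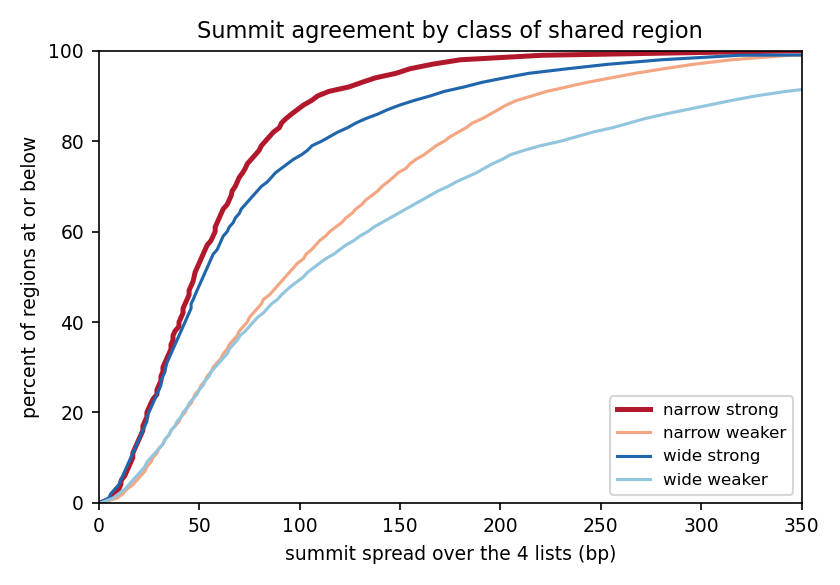
The percent of regions (vertical axis) whose 4 summits lie within a given distance in bp (horizontal axis, cut where the narrow strong curve ends), for the 4 classes of shared region. The narrow strong curve runs with the wide strong curve at small spreads and rises above it, reaching 87.4% against 76.9% at 100 bp, and both lie well above the weaker classes.

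The narrow strong sites stood far from other open regions. The median distance to the nearest shared region was 28.5 kb, with quartiles of 12.8 and 63.2 kb, against 23.5 kb for wide strong and 12.2 kb for both narrow weaker and wide weaker regions. No shared region lay within 100 kb of 162 sites (14.6%), compared with 7.91% of wide strong and 5.13% of narrow weaker regions. The median was larger in narrow strong sites than in narrow weaker regions on each of the 20 chromosomes and larger than in wide strong regions on 17. Counting any peak in at least 1 list as a neighbour, the median was 13.6 kb, against 14.3 kb for wide strong and 6.65 kb for narrow weaker regions, so the order of the strong classes turned.

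Spacing is not independent of how the sites were chosen. The recovered backgrounds above the lowest were whole multiples, within 0.02 of a step, of what 1 fragment adds when spread over 10000 bp, in 100% of the peaks of each list. A neighbour within 5 kb therefore enters the background that divides the fold. Only 77 sites (6.96%) had a shared region within 5 kb, against 3.19% of wide strong, 24.8% of narrow weaker and 19.7% of wide weaker regions. Among regions with no shared neighbour that close, the medians were 31.1 kb for the 1029 narrow strong sites, 24.4 kb for wide strong and 18.6 kb for narrow weaker regions. With any peak as the neighbour, 199 sites had one within 5 kb, and among regions with none that close the medians were 18.4 kb for the other 907 sites, 15.7 kb for wide strong and 12.3 kb for narrow weaker regions. Among these, which have no peak of any list within 5 kb, the narrow strong sites again had the largest of the 3 medians.

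Of the 77 sites with a neighbour within 5 kb, 48 had it within 1 kb (4.34% of all sites, against 1.03% of wide strong, 8.06% of narrow weaker and 6.12% of wide weaker regions) and 29 between 1 and 5 kb. The closest pair was chr1:11973625-11974261 and chr1:11974436-11975065, 174 bp apart, and the next was chr14:46526248-46526806 and chr14:46527014-46527562, 207 bp apart. Both pairs had high pileups in a high background. The pileups of the first site were 145, 113, 138 and 141 fragments and those of the second 147, 118, 142 and 136, with a mean background 6.04 and 6.03 times the lowest. These pairs also lay within 1 Mb of the strongest and the second strongest site, stretches that held 5 and 8 narrow strong sites, those 2 included. The last of the 3 closest pairs, chr19:36255420-36255875 and chr19:36256558-36256928, 682 bp apart, was of another kind, with pileups between 27 and 39 fragments and a background 1.09 and 1.10 times the lowest.

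Farthest from any other shared region were chr16:90613560-90614165 (2179.6 kb), chr14:57022836-57023251 (1865 kb) and chr14:51462216-51462743 (1859 kb). The first had folds of 8.71, 10.2, 13.1 and 9.31 and 4 summits within 6 bp. This site was near or above the median fold of the sites in each library. It was isolated only from regions open in all 4 lists, since a peak found in fewer lists lay 5.509 kb away. The distance between a narrow strong site and the nearest other was 669.9 kb in the median, and 10 sites had another within 5 kb. The nearest shared region was itself a narrow strong site in 7.41% of them, although such sites made up 3.55% of shared regions.

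**Figure D4:**
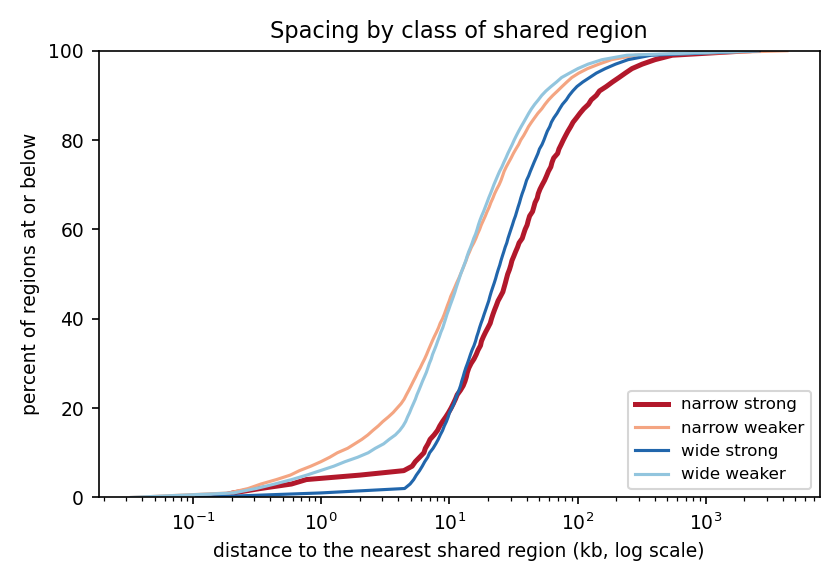
The percent of regions (vertical axis) whose nearest shared region lies within a given distance in kb (horizontal axis, log scale), for the 4 classes of shared region. The strong classes have few neighbours below 5 kb (6.96% and 3.19%), and above about 10 kb the narrow strong curve lies lowest, with a median of 28.5 kb.

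To compare the groups, ranks of fold within each list were turned into normal scores over the 31191 shared regions, on which 0 is the middle region of a list. The rule used the mean over all lists and no contrast of the groups. The median score of the narrow strong sites was 1.23 and 1.04 in the Lenti-GFP replicates and 1.09 and 1.18 in the Lenti-AS replicates. The Lenti-AS values lay between the Lenti-GFP values. The groups had means of 1.14 ± 0.0646 (SD, n = 2) in Lenti-AS and 1.14 ± 0.139 (SD, n = 2) in Lenti-GFP, a difference of 0.00214 (exact permutation test, two-sided, p = 1, where the smallest possible is 0.33). As a set, the sites were not shown to be more or less open with the antisense RNA, and the difference turned to −0.0958 without Lenti-GFP replicate 2 and to −0.0435 without Lenti-AS replicate 2.

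Single sites were tested with limma on the scores of all shared regions, with Benjamini-Hochberg adjustment. At an adjusted p under 0.05, 0 sites were higher and 0 were lower in Lenti-AS, with 0% of all shared regions called in each direction, and the smallest adjusted p of a site was 0.303. At an unadjusted p under 0.05, 65 sites (5.88%) were higher, against 3.88% of shared regions, and 72 (6.51%) were lower, against 4.83%. With −log10 p ranked the counts were 15 higher (1.36%, against 4.34% of shared regions) and 55 lower (4.97%, against 4.94%). With log2 fold centred per library they were 112 higher (10.1%, against 4.13%) and 49 lower (4.43%, against 5.76%). The balance of directions thus depended on the value compared. Leaving out Lenti-AS replicate 2 gave 8 sites that were lower at an adjusted p under 0.05 (0.151% of shared regions), in a fit where the lone Lenti-AS library is assumed to vary like the controls. Leaving out any other library gave 0. The count of higher sites at an unadjusted p under 0.05 was 113 without Lenti-GFP replicate 1 (10.2%, against 5.81% of shared regions), 32 without Lenti-AS replicate 1 (2.89%, against 1.86%) and 31 without Lenti-AS replicate 2 (2.80%, against 1.95%). The count of lower sites was 44 without Lenti-GFP replicate 1 (3.98%, against 4.71%), 132 without Lenti-GFP replicate 2 (11.9%, against 7.17%) and 43 without Lenti-AS replicate 1 (3.89%, against 2.71%). Without Lenti-GFP replicate 1 the lower sites thus went from above to below the share of shared regions. On simulated scores of the 31191 regions, the fit recovered 17% of changes of 1 score unit and 100% of 2 units under even noise. Under uneven noise it recovered 0% and 79.5%. Most changes of about 1 unit would thus have been missed in such data with 2 libraries per group. The noise was set from all shared regions, and that of the narrow strong sites alone was not simulated.

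The direction of change over all sites was near that of the shared regions. The mean score was higher in Lenti-AS in 598 sites (54.1%), against 52.2% of shared regions. Both Lenti-AS libraries were above both Lenti-GFP libraries in 246 sites (22.2%), against 20.7% of shared regions, and below both in 203 sites (18.4%), against 18.1%. The group difference exceeded the difference within either pair of replicates in 287 sites (25.9%), the same share as in all shared regions (25.9%). By these measures the narrow strong sites were close to the background of the comparison. Large differences took a larger share of them. A decrease of more than 1 score unit occurred in 30 of the 1106 sites, against 308 of the 31191 shared regions. An increase of more than 1 unit occurred in 6 sites, against 105 shared regions.

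Most of the largest decreases by score were at sites with a background at or near the lowest of their lists. At chr11:51563290-51563848 the fold was 9.34 and 13.1 in the Lenti-GFP replicates and 6.46 and 9.99 in the Lenti-AS replicates, which are percentiles of 98.5, 99.2, 43.5 and 91.6. The difference was −1.67 ± 0.407 (SE) score units, with a limma adjusted p of 0.342, and it was carried mostly by Lenti-AS replicate 1, whose pileup was 19 fragments. The groups did not overlap, but the Lenti-AS libraries were far apart.

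At chr17:59731401-59732042 the libraries of a group were closer together. Its fold was 8.67 and 11.4 in the Lenti-GFP replicates and 8.08 and 7.10 in the Lenti-AS replicates, or percentiles of 97.1, 97.5, 65.4 and 64.3. The difference was −1.54 ± 0.261 score units (limma adjusted p of 0.303). The pileups behind it were 51, 33, 24 and 26 fragments.

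The other 3 of the 5 largest decreases were chr15:61731446-61731835 (percentiles 99.0, 95.6, 61.8 and 74.4), chr7:53917932-53918591 (98.8, 97.9, 78.1 and 67.9) and chr4:77403691-77404178 (98.4, 98.3, 56.8 and 85.8), with limma adjusted p-values of 0.303, 0.303 and 0.331. The 5 further sites of smallest p, chr2:170472895-170473420, chr16:22139432-22139823, chr10:3186588-3187043, chr13:33528786-33529354 and chr1:49634460-49635092, were all lower in Lenti-AS, by 1.17 to 1.46 score units, and had adjusted p-values of 0.303 to 0.342. The differences of these 5 were −0.801 to −1.34 without Lenti-GFP replicate 1 and −1.16 to −1.82 without Lenti-GFP replicate 2. Of the 10 sites, all but chr4:77403691-77404178 had a mean background at most 1.10 times the lowest. None passed the adjusted threshold in the fit on all 4 libraries without a block. Without Lenti-AS replicate 2, chr11:51563290-51563848 (adjusted p of 0.000109), chr15:61731446-61731835 (0.0452) and chr4:77403691-77404178 (0.00771) passed it.

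The largest increases were smaller in score than the largest decreases. At chr7:103593972-103594522 the fold was 6.51 and 5.14 in the Lenti-GFP replicates and 12.4 and 10.4 in the Lenti-AS replicates, or percentiles of 80.7, 34.5, 94.8 and 93.4. The difference was 1.33 ± 0.365 score units (limma adjusted p of 0.353), and the Lenti-GFP replicates were themselves far apart. At chr4:65343994-65344344, where they were nearer, the fold was 5.62 and 7.88 in Lenti-GFP and 12.8 and 11.4 in Lenti-AS, a difference of 1.19 ± 0.276 (adjusted p of 0.331).

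The remaining 3 were chr3:42139356-42139911 (folds 7.77 and 6.90 against 13.7 and 13.1), chr1:262777286-262777735 (6.61 and 8.98 against 15.5 and 12.1) and chr10:47553468-47554115 (6.06 and 6.85 against 13.3 and 9.97). Their differences were 1.14, 1.13 and 1.09 score units, with adjusted p-values of 0.404, 0.335 and 0.342. All 5 were chosen among sites whose groups did not overlap. Their background was above the lowest, at 1.17 to 2.02 times it in the mean of the libraries.

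The sign of the group difference moved with the local background. In the 71 sites with the lowest background in every list the median difference was −0.32 score units, and both Lenti-AS libraries were below both Lenti-GFP libraries in 35.2% and above them in 7.04%, against 43.0% and 3.64% of all shared regions with such a background. In the 883 sites with a background above the lowest in every list the median was 0.08, with 15.2% below and 25.8% above, against 17.1% and 21.5% of all such shared regions. Of the 72 sites lower at an unadjusted p under 0.05, 20 had the lowest background in every list and another 21 in some lists. Of the 65 higher sites these numbers were 2 and 4, and of all 1106 sites they were 71 and 152. The calls over all shared regions were not split by background. The median differences had the same order over all shared regions, at −0.45 for 302 regions and 0.03 for 29635. This order was thus not particular to the narrow strong sites, and its part in the named differences was not tested.

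**Figure D5:**
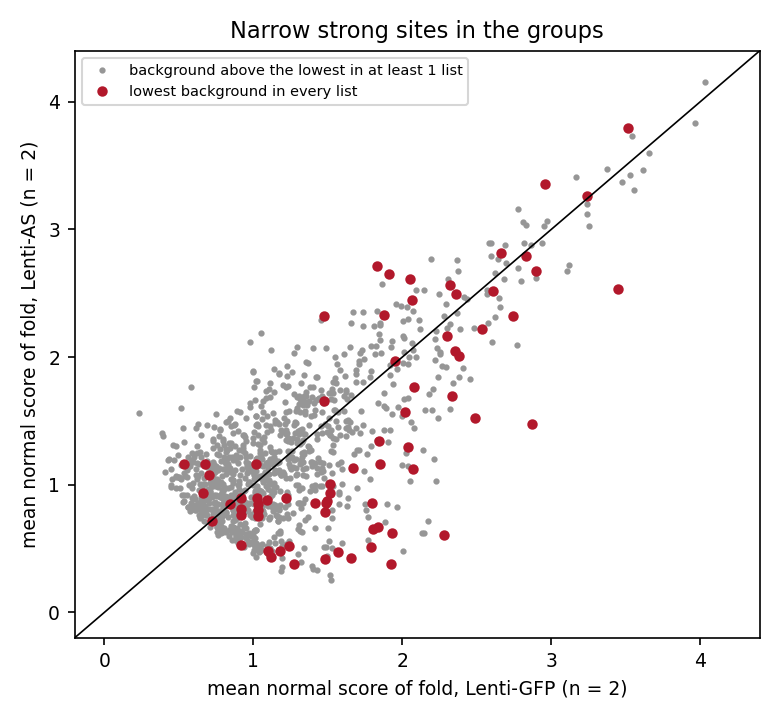
The mean normal score of fold of each narrow strong site in Lenti-GFP (horizontal axis) and Lenti-AS (vertical axis), each the mean of 2 libraries, with the line of equality. The 71 sites with the lowest background in every list (red) lie mostly below the line, with a median difference of −0.32, and the other sites lie on both sides.

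Surroundings rich and poor in open regions also differed when pileup was ranked in place of fold. Among the 149 sites with at most 4 other shared regions within 500 kb, the recovered pileup ranked higher in Lenti-AS in 32.9%, and among the 105 sites with at least 30 it did so in 77.1%. By fold these shares were 55.7% and 52.4%. Over all shared regions the shares were 22.2% and 69.8% by pileup and 47.4% and 48.9% by fold. A ranking that divides by the local background and one that does not therefore gave different group differences for the same sites, in step with how many open regions lay around them.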

How the data were processed

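Open chromatin was measured by ATAC-seq in 4 libraries, 2 per group, and groups were taken from the labels. Per the methods and processing notes, the authors aligned reads to rn6 with Bowtie2, removed duplicates with Picard and called peaks with MACS2 in each library separately. MACS2 options and any shift of reads for the transposase are not given in the sources used here. The deposited fold is a ratio of summit pileup to local background. The deposited −log10 p, −log10 q and score (10 times −log10 q) of a peak grow with depth.

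From these values, a whole-number pileup and a background were recovered for each peak as the pair giving the deposited fold, as (pileup + 1)/(background + 1), and the deposited −log10 p as a Poisson tail, within 0.001 for 100% of peaks. Intervals for counting error are not given because read totals were not analysed here. Peaks sharing at least 1 bp were merged with Python 3.11.15 and pandas 2.3.3. Every narrow strong site held 1 peak per list. Summits are compared as positions on rn6, counted from 1. Normal scores were fitted with limma 3.58.1 (R 4.3.3, moderated variance, no covariate) and adjusted by Benjamini-Hochberg over 31191 regions. The fit was tested on simulated scores. Single values per library were compared by exact permutation over 6 assignments.

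The members, the limits and the lists were chosen with earlier results of these data known. Regions named are the 10 of highest mean percentile, the 5 largest differences in each direction among those whose groups did not overlap, the next 5 by limma p, the 5 widest and 3 smallest summit spreads, the 3 closest pairs, the 3 most isolated sites and those at the limits. A planned search for motifs and genes was not run without an rn6 genome. Alternatives were other limits, other ranked values, a −log10 q of at least 5, regions in at least 2 lists, a replicate block and each library left out.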

Additional observations from a re-analysis of the deposited data

How the results depend on the processing

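The number of narrow strong sites, 1106, moved to 548 and 1939 with length limits of 600 and 800 bp and to 354 when −log10 p was ranked, and ranged from 1203 to 2141 with 1 library left out. It stayed between 795 and 1461 with percentile limits of 80 and 70, a −log10 q of at least 5, or peaks up to 100 bp apart merged. The median summit spread was 36 to 39 bp over 3 libraries. The median distance to the nearest shared region was 25.4 to 28.6 kb with a library left out and 13.6 kb when any peak counted as a neighbour. The group difference in summit deviation stayed between −3 and −0.25 bp.

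The group difference of the median score was 0.00214 and turned negative when −log10 p (−0.0725) or pileup (−0.0319) was ranked. With log2 fold centred per library it was 0.078 log2 units (exact permutation test, p = 0.33, the smallest possible). It ranged from −0.0958 without Lenti-GFP replicate 2 to 0.100 without Lenti-GFP replicate 1, and was −0.0435 without Lenti-AS replicate 2.

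Of the counts at an adjusted p under 0.05, both 0 by limma, the higher one stayed at 0 to 0 with a library left out, and the lower one was 0 to 8. At an unadjusted p under 0.05, the 65 higher sites became 15 with −log10 p ranked (1.36%, against 4.34% of all regions tested), 112 with log2 fold centred per library (10.1%, against 4.13%), 14 over regions in at least 2 lists (1.27%, against 2.51%) and 31 to 113 with a library left out. The 72 lower sites became 55 with −log10 p ranked (4.97%, against 4.94%), 49 with centred log2 fold (4.43%, against 5.76%), 35 over regions in at least 2 lists (3.16%, against 3.07%) and 43 to 132 with a library left out. The cause of these changes was not tested.

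The labels do not say what a shared replicate number stands for, and libraries of the same number deviated from the group means with a correlation of −0.197, so the numbers were not used as pairs. With the replicate number as a block, limma had 1 residual degree of freedom and called 0 higher and 7 lower sites at an adjusted p under 0.05 (0.00321% and 0.164% of shared regions), and 43 higher at an unadjusted p under 0.05 (3.89%, against 2.76%). Of the 10 named decreases, 6 were among those 7, at adjusted p-values of 0.00387 to 0.0216. That fit gave all regions the same variance, so the spread between a site's own replicates did not enter its p-value. The group difference of the median score stayed at 0.00214. A crossed block, added after seeing the data because of the negative correlation, called 9 higher and 38 lower at an adjusted p under 0.05 (0.644% and 1.45% of shared regions) and 110 and 114 at an unadjusted p under 0.05 (9.95% and 10.3%, against 6.06% and 7.55%). All 7 sites of the first block were among those of the second. Both blocks leave the group difference of a site unchanged, so this overlap is no separate support.

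For the 15 named sites with the largest differences or smallest p, 111 of 120 recomputed values kept direction and side of the threshold, 9 (over 6 sites) passed it and 0 reversed. These 15 sites were chosen by their differences or p-values, and at each the groups did not overlap. Leaving out a library or adding the block therefore could not reverse a direction, and only the fits on other values could have. The Lenti-AS pileups at 9 of the 10 named decreases were 19 to 37 fragments, so depth limits what a single site can show.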

Other observations

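The share of shared regions that were narrow strong sites differed between chromosomes. It was lowest on chromosome 12, with 19 of 923 shared regions (2.06%), and highest on chromosome 14, with 63 of 1099 (5.73%), followed by chromosome 2 with 121 sites (5.01%). Chromosome 1 held 118 sites, 3.14% of its shared regions.

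Summits lay near the middle of the peaks in each list, at a median of 49.1% to 49.9% of the peak width, and the most off-centre summit was at 10.5% of the width, in Lenti-GFP replicate 2. Over the 1106 sites the Spearman correlation of fold was 0.598 between the Lenti-AS replicates, 0.487 between the Lenti-GFP replicates and 0.321 to 0.517 between libraries of different groups. These correlations are across sites chosen for high mean fold, which share libraries and depth, and are given as a description.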
